A study of Mus musculus with 12 samples.

Results

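A set of 7 genes of the retinal pigment epithelium were followed: Rpe65, Lrat, Rgr, Rdh5, Ttr, Best1 and Stra6, chosen by name with earlier results of these data known, which are 7 of 25124 gene symbols in the tables. All 7 were found in both tables of FPKM, fragments scaled by transcript length and by the number of mapped tags, so that levels can be compared between genes. The measured levels that selected them are therefore given as a description, with no p-value for these 7, and counts of them past the thresholds of the fit over all genes are given beside the share of all tested genes only as a description. The libraries were 12 polyA libraries of bulk retina from wild-type C57BL/6J mice, in 6 groups of 2 libraries each. The 3mo and 18mo groups were 3 and 18 months old, and 1 eye had its intraocular pressure (IOP) raised to 30 mmHg for 1 h while the contralateral, untreated eye was the control. In the 4xIOP group, mice that were 3 months old at the first elevation had 4 elevations of 30 mmHg for 1 h in the same eye, biweekly, and the other eye was the 4xIOP control. Retinas were taken 2 days after the last elevation. The control eyes thus came from mice whose other eye had been treated, and no library came from a mouse without a treated eye. Nothing in the labels ties a numbered control library to a numbered IOP library.

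The retinal pigment epithelium is a single layer of pigmented cells that lies behind the photoreceptors. It takes up vitamin A from the blood and rebuilds the light-sensitive cis form of retinal that photoreceptors use up in light, a series of reactions called the visual cycle. Ttr encodes transthyretin, which carries thyroid hormone and, together with retinol-binding protein, vitamin A. Stra6 encodes the receptor for retinol-binding protein. Lrat esterifies retinol, Rpe65 turns the ester into cis-retinol, and Rdh5 oxidises cis-retinol to cis-retinal. Rgr encodes an opsin of the pigment epithelium and of Muller glia, and Best1 a chloride channel of the basal membrane of the pigment epithelium.

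Because 5 of the 7 genes had a common pattern over the libraries and Best1 did not, the sequences before their transcription starts are shown. RefSeq (GRCm38.p6) gave windows of 300 bases, 250 before and 50 after the start, for 6 of the 7 genes, and none for Ttr. Capitals mark 2 short motifs searched on both strands: TAATCC, the core bound by OTX factors, and the E-box forms CACGTG and CATGTG, to which MITF-type factors bind. On the opposite strand these read GGATTA and CACATG. The 4 windows shown are those of Rpe65 (chr3:159598931-159599230, plus strand), Rgr (chr14:37048965-37049264, minus strand) and Best1 (chr19:10001584-10001883, minus strand), which hold a motif, and that of Lrat (chr3:82903925-82904224, minus strand), which holds neither.
Rpe65: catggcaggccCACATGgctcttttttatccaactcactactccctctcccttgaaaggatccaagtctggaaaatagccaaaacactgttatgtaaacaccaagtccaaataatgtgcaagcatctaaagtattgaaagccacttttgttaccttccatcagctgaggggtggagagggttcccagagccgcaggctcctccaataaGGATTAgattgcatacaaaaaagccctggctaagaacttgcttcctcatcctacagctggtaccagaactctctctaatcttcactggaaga
Rgr: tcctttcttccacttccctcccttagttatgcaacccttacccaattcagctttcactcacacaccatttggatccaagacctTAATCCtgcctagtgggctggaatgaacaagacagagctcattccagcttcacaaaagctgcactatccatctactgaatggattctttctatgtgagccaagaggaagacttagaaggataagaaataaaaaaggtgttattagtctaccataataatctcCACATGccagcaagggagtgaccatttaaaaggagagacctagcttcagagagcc
Best1: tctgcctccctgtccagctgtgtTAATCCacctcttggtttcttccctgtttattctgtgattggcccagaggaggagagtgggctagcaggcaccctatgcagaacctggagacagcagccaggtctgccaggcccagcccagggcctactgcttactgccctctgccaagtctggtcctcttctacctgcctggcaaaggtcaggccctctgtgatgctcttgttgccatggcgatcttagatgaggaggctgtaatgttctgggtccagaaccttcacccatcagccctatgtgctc
Lrat: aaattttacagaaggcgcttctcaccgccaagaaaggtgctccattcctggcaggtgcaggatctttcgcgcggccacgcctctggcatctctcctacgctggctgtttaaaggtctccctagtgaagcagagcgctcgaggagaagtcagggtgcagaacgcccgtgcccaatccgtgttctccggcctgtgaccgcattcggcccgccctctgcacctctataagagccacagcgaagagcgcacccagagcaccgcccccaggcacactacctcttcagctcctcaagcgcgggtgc
The TAATCC core began 42 bases before the start of Rpe65, 167 before that of Rgr and 227 before that of Best1. The E-box began 239 bases before the start of Rpe65 and 5 before that of Rgr. Both motifs together stood in the windows of Rpe65 and Rgr, and in 1.32% of all 32851 windows. The core, with or without an E-box, was found in 7.06% of all windows, and an E-box, with or without the core, in 20.4%. The windows of Lrat, Rdh5 and Stra6 held neither. These matches are letters only and no binding was measured.

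Depth was recovered from the FPKM values, and was 39766239 to 59455056 mapped tags a library. Of the single-elevation libraries, 65.98 to 71.5% of tags lay in exons, against 44.2 to 53.7% in the repeated-elevation libraries. The 2 tables were normalized separately, so levels of 3mo and 4xIOP libraries are set side by side without a test. Short transcripts (under 1000 bases) stood at 1.89 and 4.70 times the long ones (from 4000 bases) in the 3mo controls, 3.26 and 2.99 in the 3mo IOP retinas and 1.20 to 1.36 in the 18mo libraries. This ratio moved with age, as the levels below did, and its part in them was not tested beyond removal of the length trend. With the trend removed, the median log2 fold change with age of the genes followed was -2.97 in control eyes, in place of -3.49. In treated eyes this median was -2.80, in place of -3.39. Sag, which encodes the arrestin of rods, was at 2195 to 7990 FPKM in the single-elevation table and 1313 to 2571 FPKM in the other, so every library carried photoreceptor RNA. Of the pigment epithelium genes, Rpe65 was at least at 5.59 FPKM in all 3mo libraries and at 0.462 FPKM or less in all 18mo libraries.

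**Figure D1:**
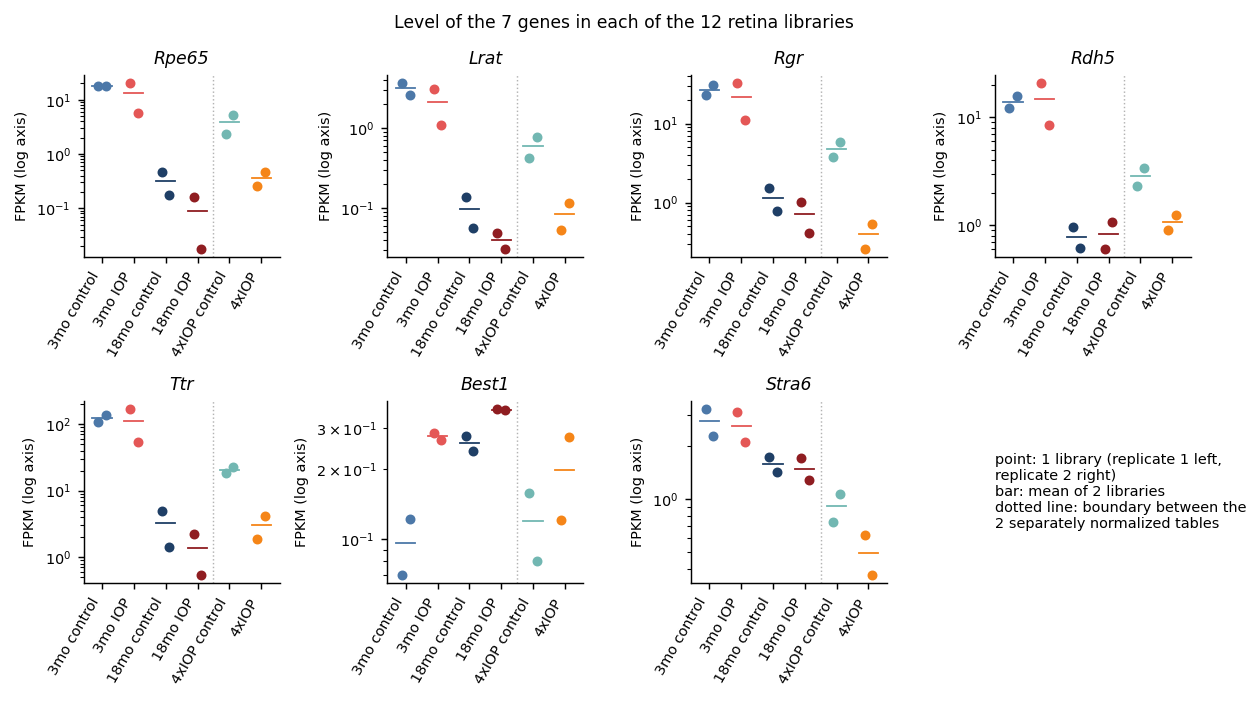
FPKM (log axes, which differ between panels) of the 7 genes in the 12 libraries, by group; each point is 1 library, each bar the mean of 2, and the dotted line parts the separately normalized tables. Rpe65, Lrat, Rgr, Rdh5 and Ttr stand lower in all 4 libraries of 18mo retina than in any of 3mo retina, Stra6 is lower by less, and Best1, at 0.07 to 0.361 FPKM throughout, has its lowest value in a 3mo control.

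Age was compared first in the untreated eyes, and then in the treated eyes. Rpe65, the isomerase of the cycle (NM_029987, mm10 chromosome 3, 159599181 to 159625307, plus strand), was at 17.6 and 18.2 FPKM in the 3mo controls and at 0.462 and 0.176 FPKM in the 18mo controls. In reads these were 1334 and 1588 against 37 and 15. The 18mo mean was 56.1-fold lower, a log2 fold change of -4.51 (standard error 0.497) on the log2(FPKM + 0.5) scale, which understates the change of low values. In bulk retina, fewer pigment epithelium cells and less RNA per cell cannot be told apart.

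Lrat, the esterifying enzyme that makes the substrate of Rpe65 (NM_023624, chromosome 3, 82892582 to 82903974, minus strand), had 3.68 and 2.59 FPKM in the 3mo controls and 0.137 and 0.056 in the 18mo controls. Rgr, the opsin (chromosome 14, 37034909 to 37049014, minus strand), had 23.2 and 30.4 FPKM against 1.52 and 0.794. Rdh5, the dehydrogenase (chromosome 10, 128913591 to 128919297, minus strand), had 12.2 and 15.6 FPKM against 0.961 and 0.611. In each of the 3 the younger control eyes lay far above the older ones, with mean levels 32.5-fold, 23.1-fold and 17.7-fold lower at 18mo. Rdh5 overlaps Bloc1s1 on the same strand, so that reads in exons shared by both cannot be told apart, and Lrat overlaps Rbm46os on the opposite strand.

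Ttr, the carrier protein (NM_013697, overlapped by Gm16090 on the opposite strand), was the most abundant of the 7, at 109 and 135 FPKM in the 3mo controls and 4.98 and 1.44 in the 18mo controls. Its log2 fold change was -5.22 (standard error 0.67), a mean 38.02-fold lower. Stra6, the retinol-binding protein receptor (chromosome 9, 58129088 to 58153997, plus strand), had 3.25 and 2.30 FPKM at 3mo and 1.73 and 1.42 at 18mo. The 2 ages did not overlap for Stra6, but its mean was only 1.76-fold lower. Best1, the chloride channel (chromosome 19, 9985172 to 10001633, minus strand), stood apart with 0.07 and 0.122 FPKM at 3mo and 0.276 and 0.238 at 18mo, 18 reads in all at 3mo and 48 at 18mo.

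A gene was called when its limma p, adjusted over all tested genes by Benjamini-Hochberg, was 0.05 or less and its change 1 log2 unit or more. Of the 7 genes, 6 passed the filter of a mean of 0.5 FPKM in the single-elevation table and 5 of these were called lower in the 18mo controls, where 11.6% of the 13731 tested genes were called lower and 11.6% higher. Rpe65 and Lrat had means under 0.5 FPKM in both 18mo groups and so passed the filter through the 3mo libraries, which bears on the count of 5. Lower without overlap were 6 of the 7, against 32.8% of tested genes, and higher without overlap was Best1 alone, against 45.7%. Since the choice of the genes used this contrast, nothing is read from these counts. The median of the 7 log2 fold changes was -3.49, and that of all tested genes 0.16.

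In the treated eyes the direction of each of the 7 differences with age was the same. The 18mo IOP libraries held Rpe65 at 0.16 and 0.018 FPKM against 20.5 and 5.59 in the 3mo IOP libraries. The lower value is 2 reads, which is within the limit of 3 reads that a count of 0 allows. Ttr stood at 2.25 and 0.54 FPKM against 168 and 54.2, a log2 fold change of -5.83 (standard error 0.67). Rgr was at 1.02 and 0.409 FPKM against 32.7 and 11.2, Rdh5 at 0.608 and 1.07 against 20.7 and 8.53, and Lrat at 0.048 and 0.031 against 3.10 and 1.10. For these 5 genes no library of 18mo retina reached any of 3mo retina. Stra6 had 1.70 and 1.28 FPKM against 3.13 and 2.11, again a smaller difference, and Best1 0.361 and 0.358 against 0.285 and 0.267.

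In the treated eyes 5 of the 6 tested members were called lower with age, beside 11.6% of tested genes called lower and 10.2% called higher. Here too Rpe65 and Lrat passed the filter through the 3mo libraries. Without overlap, 6 of the 7 were lower, beside 34.5% of tested genes, and Best1 was higher, beside 43.2%. The median of the 7 was -3.39, and 0.09 over all tested genes. This contrast too was in view when the genes were chosen.

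**Figure D2:**
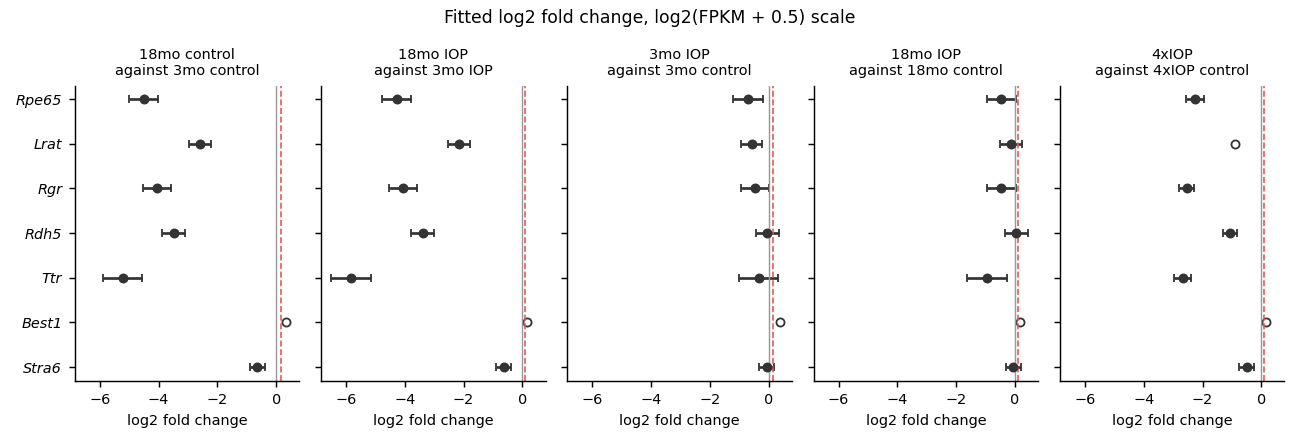
Fitted log2 fold change on the log2(FPKM + 0.5) scale for each gene in 5 comparisons; bars are the standard error of the fit, open circles are genes under the mean of 0.5 FPKM, and the dashed line is the median of all tested genes. In both age comparisons Ttr is lowest (-5.22 and -5.83) and Stra6 and Best1 lie within 1 unit of 0, and in the 4xIOP comparison Ttr, Rgr and Rpe65 lie at -2.67, -2.54 and -2.26.

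Upon a single elevation at 3mo, the 2 treated libraries lay on either side of the controls for Rpe65, Rgr, Rdh5 and Ttr. Replicate 1 of the 3mo IOP retinas had the highest level of the 4 libraries of that age for Rpe65 (20.5 FPKM), Rgr (32.7), Rdh5 (20.7) and Ttr (168). Replicate 2 had the lowest for Rpe65 (5.59), Lrat (1.10), Rgr (11.2), Rdh5 (8.53), Ttr (54.2) and Stra6 (2.11). The difference between these 2 treated libraries, 3.66-fold for Rpe65 and 3.10-fold for Ttr, was larger than that between the 2 untreated ones, 1.04-fold and 1.24-fold. The median log2 fold change of the 7 was -0.34, and it was -1.15 without replicate 1 and 0.29 without replicate 2, so a single library decided its sign. Best1 alone did not overlap, at 0.285 and 0.267 FPKM against 0.07 and 0.122 in the controls. No member was called by limma, while 0.568% of tested genes were called higher and 0.00728% lower, and 28.6% were higher without overlap.

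At 18mo few reads of Rpe65 and Lrat were left in either eye. Rpe65 had 37 and 15 reads in the control libraries and 16 and 2 in the treated ones. Rpe65 and Lrat were lower without overlap (Lrat 0.137 and 0.056 FPKM against 0.048 and 0.031), which 9.89% of tested genes were. Best1 was higher without overlap, which 36.5% were. The libraries of Ttr, Rgr, Rdh5 and Stra6 overlapped, and for Ttr the log2 fold change was -0.95 with a standard error of 0.67. None of the 7 was called by limma, beside 0.117% of tested genes called higher and 0.00728% lower. Fitted differences between the ages in the response to IOP ranged from -0.61 (Ttr, standard error 0.947) to 0.44 (Lrat, standard error 0.523), each of the 6 tested being smaller than its standard error. At these depths, a change of Rpe65 or Lrat upon IOP at 18mo could not be resolved.

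Repeated elevation was the comparison in which treated and control eyes of the same age stood apart. Rgr was at 3.73 and 5.81 FPKM in the 4xIOP control eyes and at 0.262 and 0.536 in the 4xIOP eyes, 11.96-fold lower (log2 fold change -2.54, standard error 0.249). Ttr was at 18.5 and 23.0 FPKM against 1.88 and 4.17, 6.88-fold lower (-2.67, standard error 0.288). Rpe65 was at 2.38 and 5.29 FPKM against 0.254 and 0.466, 10.7-fold lower (-2.26, standard error 0.299). In each of these the lowest control library was above the highest treated one. The control values themselves were below those of the 3mo controls, where Rpe65 was at 17.6 and 18.2 FPKM, but those stand in the other table and mice of the repeated series were older at collection.

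Rdh5 was lower by less, at 2.29 and 3.41 FPKM against 0.909 and 1.25, a log2 fold change of -1.07 (standard error 0.231). Lrat, which did not pass the filter in this table, had 0.423 and 0.778 FPKM against 0.053 and 0.115, or 266 reads in the 2 control libraries and 42 in the 2 treated ones. Stra6 had 0.742 and 1.08 FPKM against 0.622 and 0.37, without overlap, and its log2 fold change was -0.50 (standard error 0.261). Best1 overlapped, at 0.158 and 0.08 FPKM against 0.121 and 0.275.

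Of the 7, 4 of the 5 that passed the filter were called lower (Rpe65, Rgr, Rdh5 and Ttr), where 0.693% of the 13718 tested genes were called lower and 5.45% higher. Rpe65 and Rgr had means of 0.36 and 0.399 FPKM in the 4xIOP eyes and so passed the filter through the controls, which bears on the count of 4. Lower without overlap were 6 of the 7, beside 12.7% of tested genes. The median of the 7 was -1.07, and 0.10 over all tested genes. Nothing is read from these counts, since the genes were selected with this contrast known. The count of 4 also rests on single libraries and on the processing, since Rpe65 and Rdh5 were not past the thresholds without 4xIOP replicate 1 or replicate 2, and Rdh5 not without 4xIOP control replicate 2, with a pseudocount of 1 or with no filter on low values. Over the alternatives the log2 fold change of Rpe65 lay between -3.50 and -1.76 and that of Rdh5 between -1.53 and -0.83.

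The ratios among the 7 also differed with age. Relative to Rpe65 in the same library, Ttr was 6.19 to 9.71 in the 4 libraries of 3mo retina and 8.19 to 14.1 in the 3 libraries of 18mo retina with over 3 Rpe65 reads. Lrat was 0.142 to 0.209 times Rpe65 at 3mo and 0.297 to 0.318 times at 18mo. Rgr stood at 1.32 to 2.01 and 3.30 to 6.38 times Rpe65, and Rdh5 at 0.695 to 1.53 and 2.08 to 3.80 times. Stra6 was 0.126 to 0.377 times Rpe65 at 3mo and 3.74 to 10.7 times at 18mo, the widest shift among the other 5 tested genes. Lrat, Rgr, Rdh5 and Stra6 were thus higher relative to Rpe65 in these 18mo libraries than at 3mo, without overlap, while the ranges of Ttr overlapped. Counting error in these 18mo libraries was 16.4 to 25.8% for Rpe65 and 17.7 to 26.7% for Lrat, whose ratio moved least of the 4. Lrat (5345 bases), Rgr (4281) and Stra6 (2746) are longer than Rpe65 (1826), and Rdh5 (1258) is shorter. The part of counting error and of transcript length in these ratios was not tested.

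In the repeated-elevation table the ratio of Rgr to Rpe65 was 1.57 and 1.10 in control eyes and 1.03 and 1.15 in treated eyes, so these 2 genes differed by like factors. Rdh5 was 0.961 and 0.645 times Rpe65 in control eyes and 3.58 and 2.67 times in treated eyes. Stra6 was 0.312 and 0.203 times against 2.45 and 0.794 times. Summed over the 7 genes, the level was 169 and 204 FPKM in the 3mo controls, 249 and 83.03 in the 3mo IOP libraries, 3.71 to 10.1 at 18mo, 28.2 and 39.5 in the 4xIOP controls and 4.10 and 7.18 in the 4xIOP eyes. Ttr made up 64.5 to 67.7% of this sum at 3mo and 14.6 to 49.4% at 18mo.

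**Figure D3:**
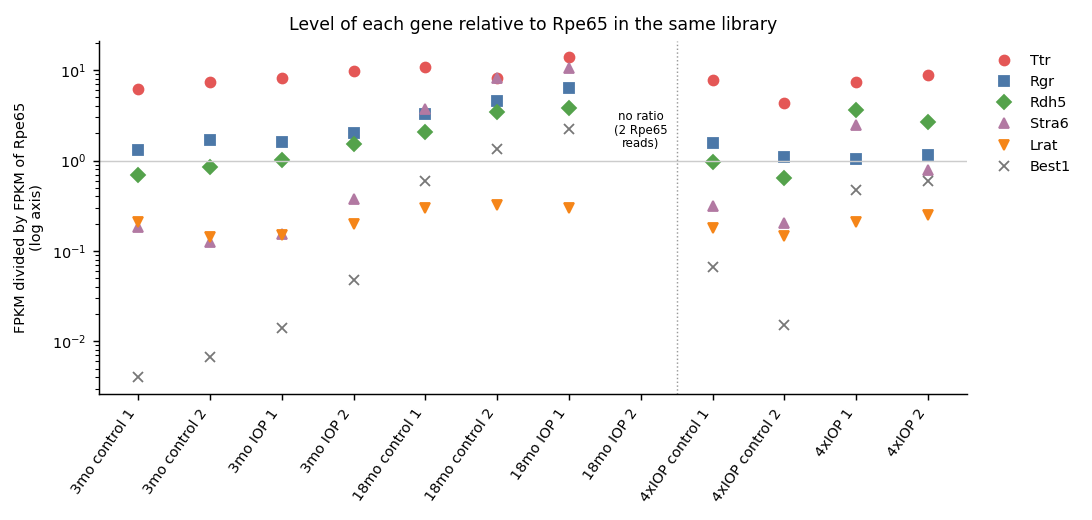
FPKM of each of the other 6 genes divided by the FPKM of Rpe65 in the same library (log axis), with no ratio for 18mo IOP replicate 2, where Rpe65 had 2 reads; the dotted line parts the 2 tables. Ttr stays at 6.19 to 14.1 times Rpe65 in the single-elevation libraries shown, while Stra6 and Best1 climb from below 1 in all 3mo libraries to 3.74 and above, and 0.597 and above, at 18mo.

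Across the 8 single-elevation libraries, log2(FPKM + 0.5) of Rpe65, Lrat, Rgr, Rdh5 and Ttr correlated with each other at Pearson's r of 0.968 to 0.997. The libraries fall into 2 clusters by age, and a library's depth and tissue content are common to all its genes, so these values describe the age difference more than a relation within it. Best1 correlated negatively with each of the 5. By the mean of the 6 tested members, the genes of most similar pattern among 8207 compared were Pon1 (r = 0.997), Slc16a8 (0.992), the row annotated Mir29c (0.989), Car12 (0.989), Kcnj13 (0.988) and A430035B10Rik (0.985). Of the 8207 genes, 1082 had r of 0.9 or more.

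Pon1, a paraoxonase, had 3.99 and 4.25 FPKM in the 3mo controls, 5.22 and 1.90 in the 3mo IOP retinas and 0.022 to 0.152 at 18mo. It was at 0.586 and 0.472 FPKM in the 4xIOP controls and 0.024 and 0.095 in the 4xIOP eyes (2 and 6 reads), so it followed the members in the 4 libraries that did not choose it. Slc16a8, a lactate transporter of the pigment epithelium, had 0.48 and 1.07 FPKM in the 4xIOP controls and 0.14 and 0.212 in the treated eyes. Car12, a carbonic anhydrase, had 0.233 and 0.431 against 0.034 and 0.129, and Kcnj13, a potassium channel of the same epithelium, 0.223 and 0.317 against 0.058 and 0.078. In all 4 of these genes, and in A430035B10Rik (10.6 and 10.9 against 4.66 and 5.84 FPKM), the treated eyes lay below the control eyes without overlap. Over all tested genes 12.7% were lower without overlap there. None of these genes was called, since A430035B10Rik changed by less than 1 log2 unit (-0.97) and the others did not pass the filter. Kcnj13 had 10 reads in each treated library. The row annotated Mir29c did not do so, at 74.6 and 75.2 FPKM against 41.8 and 76.1, and it overlaps A330023F24Rik on the same strand.

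**Figure D4:**
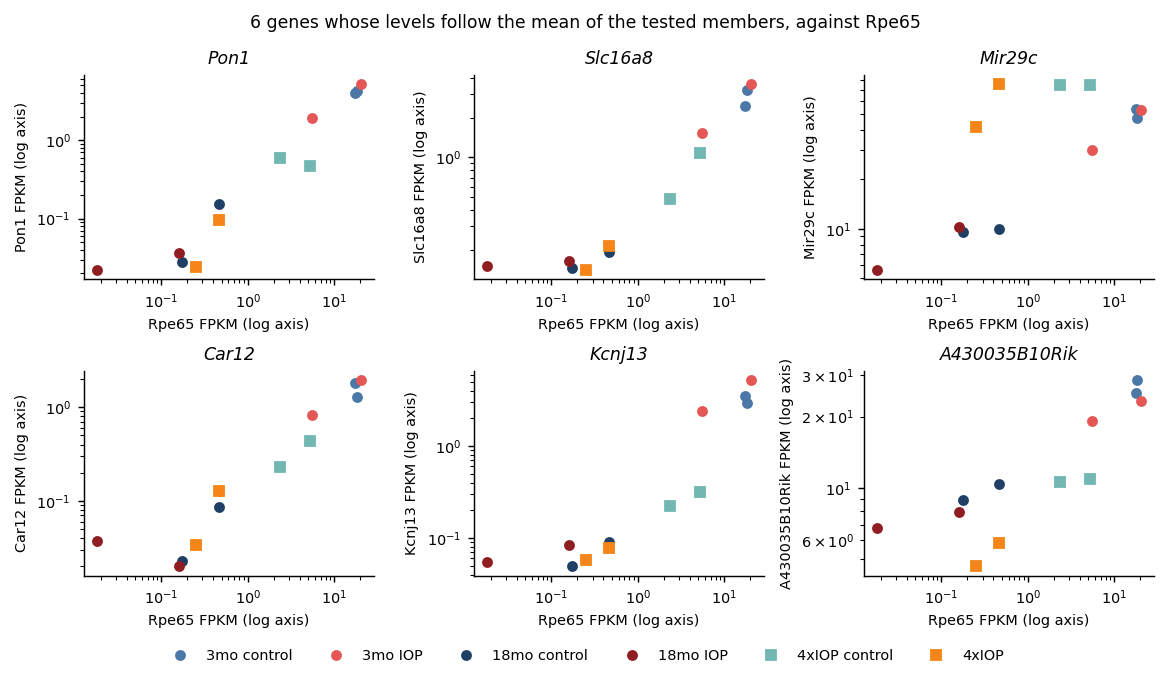
FPKM of the 6 genes of most similar pattern against FPKM of Rpe65 in the same library (log axes), circles for the single-elevation and squares for the repeated-elevation table. Pon1, Slc16a8, Car12 and Kcnj13 have all 4xIOP squares below all 4xIOP control squares, whereas Mir29c has one 4xIOP library (76.1 FPKM) above both controls (74.6 and 75.2).

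Of the other 24 pigment epithelium genes listed, 21 were tested, and in the 18mo controls 7 of these were called lower than at 3mo and 1 higher, beside 11.6% of all tested genes in each direction. Their median log2 fold change was -0.71, and that of all tested genes 0.16. Kcnj13, Slc16a8, Slc39a12 and Col8a2 had means under 0.5 FPKM in both 18mo groups and so passed the filter through the 3mo libraries, which bears on the count of 7. Kcnj13 fell from 3.47 and 2.97 FPKM to 0.09 and 0.049 (log2 fold change -2.70, limma adjusted p = 0.00394). Slc16a8 fell from 2.46 and 3.24 FPKM to 0.192 and 0.144 (-2.32, limma adjusted p = 0.00496). Slc39a12, a metal ion transporter, fell from 1.31 and 1.44 FPKM to 0.129 and 0.161 (-1.54, limma adjusted p = 0.00564). Also called lower were Mfrp, Col8a2, Dapl1 and Slc6a20a. The gene called higher was Mertk, the receptor for uptake of shed outer segments, which is also made by macrophages, at 0.711 and 0.689 FPKM against 2.47 and 2.48 (1.31, limma adjusted p = 0.00543). The calls of Kcnj13, Slc16a8, Slc39a12 and Mertk held under all 12 alternatives. With any library left out in turn, the limma adjusted p reached 0.071 for Mfrp (without 3mo control replicate 1 or either 18mo control), 0.0905 for Col8a2 (without any of the 4), 0.0978 for Dapl1 (without 18mo control replicate 2) and 0.0933 for Slc6a20a (without any of the 4). The call of Dapl1 was also lost with the length trend removed and that of Slc6a20a with a pseudocount of 1.

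In the treated eyes 9 of the 21 were called lower with age and 2 higher, Mertk and Sulf1, a sulfatase, beside 11.6% and 10.2% of all tested genes. The calls of Kcnj13, Slc16a8, Slc39a12 and Mertk held there under all 12 alternatives. That of Dapl1 was kept in 5 of 13 and lost without any 1 of the 4 libraries, with no filter on low values, with median-of-ratios scaling, with the replicate block and with the length trend removed (limma adjusted p = 0.508). That of Col8a2 was kept in 7 of 12 and lost with no filter, with only the groups compared in the fit and without 3mo IOP replicate 1 or either 18mo IOP library (highest limma adjusted p = 0.089). Slc6a20a lost its call with a pseudocount of 1 and without 3mo IOP replicate 1 or 18mo IOP replicate 2 (highest limma adjusted p = 0.0902), Mfrp without 3mo IOP replicate 1 (0.0577), and Sulf1 without 3mo IOP replicate 2 (0.0519) and with the length trend removed. No gene of the 21 was called upon a single elevation by limma or by voom, at 3mo or at 18mo, although 7 at 3mo and 8 at 18mo were higher at an unadjusted limma p under 0.05 and 0 were lower. Of all 13731 tested genes, 1169 at 3mo and 1297 at 18mo had such a p in either direction. After repeated elevation 3 of 16 tested were called higher and 1 lower, beside 5.45% and 0.693% of all tested genes. Efemp1, a matrix protein, rose from 7.28 and 7.59 FPKM to 22.2 and 25.0 (log2 fold change 1.60, limma adjusted p = 0.00038), and Sulf1 from 7.06 and 9.20 to 21.9 and 34.1 (1.70, limma adjusted p = 0.000984). Col8a2, a collagen chain, fell from 0.942 and 1.05 FPKM to 0.107 and 0.263 (-1.13, limma adjusted p = 0.0158). Its mean in the 4xIOP eyes was 0.185 FPKM, so it passed the filter through the controls, which bears on its call. The call of Efemp1 held throughout, that of Sulf1 was lost without 4xIOP control replicate 1 (limma adjusted p = 0.0641) and that of Col8a2 without either control or 4xIOP replicate 1 (highest limma adjusted p = 0.185) and with a pseudocount of 1. Efemp1 and Sulf1 are made by other retinal or connective cells as well.

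The melanin genes, which pigment cells of the epithelium, choroid and iris share, were mostly called lower with age, and at 3mo their levels in the IOP libraries lay above those in the controls, with few calls. Of 8 tested melanin genes, 7 were called lower in the 18mo controls and 8 in the 18mo IOP eyes, beside 11.6% of all tested genes in either comparison. Mlana, Tyrp1, Slc24a5 and Tyr had means under 0.5 FPKM in both 18mo groups and so passed the filter through the 3mo libraries, which bears on these counts. Dct, a melanin enzyme, had 34.6 and 8.08 FPKM in the 3mo controls and 1.70 and 0 in the 18mo controls (log2 fold change -4.05, limma adjusted p = 0.00849, and 0.0536 without 18mo control replicate 2). Without that library the control-eye calls of Tyrp1 (limma adjusted p = 0.0591), Pmel, Slc24a5 and Tyr were lost too, and without others those of Pmel (3mo control replicate 1), Slc24a5 (3mo control replicate 1 or 18mo control replicate 1) and Tyr (18mo control replicate 1), with highest limma adjusted p of 0.191, 0.105 and 0.0747. The call of Mlana held under all 13 alternatives. The call of Pmel was also lost with no filter on low values and that of Tyr with a pseudocount of 1. In the 3mo IOP retinas Dct had 195 and 99.4 FPKM. All 8 were higher without overlap there, beside 28.6% of all tested genes, with a median log2 fold change of 2.49, and 2 were called: Mlana (limma adjusted p = 0.0325) and Rab38 (limma adjusted p = 0.0378). Of all tested genes 0.568% were called higher there. Voom called 0 of the 8, and 7 had an unadjusted limma p under 0.05, which 1169 of all 13731 tested genes had in either direction. With a library left out, both calls were lost without 3mo control replicate 1 or either 3mo IOP library, that of Mlana also without 3mo control replicate 2 (highest limma adjusted p = 0.305 for both). Each was kept in only 5 of 14 alternatives. Both were also lost by voom, with no filter on low values and with median-of-ratios scaling, Mlana with a pseudocount of 0.1 and with the length trend removed, and Rab38 with the replicate block, with only the groups compared in the fit and with the filter raised to a mean of 2 FPKM. The 3mo IOP replicate 2 with the lowest Rpe65 of its age (5.59 FPKM) thus held 99.4 FPKM of Dct, over the 34.6 of the control with the most. Upon repeated elevation 2 melanin genes were tested and Dct was called lower (1.73 and 1.53 against 0.245 and 0.683 FPKM, limma adjusted p = 0.0125), beside 0.693% of all tested genes. Its mean in the 4xIOP eyes was 0.464 FPKM, so it passed the filter through the controls, which bears on this call. The call was lost with a pseudocount of 1 and with no filter on low values (limma adjusted p = 0.0847). It was also lost without 4xIOP control replicate 1 or 4xIOP replicate 1, and with 1 library left out the log2 fold change lay between -1.51 and -0.85.

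Summed over the 10 melanin genes, the level was 73.8 and 22.1 FPKM in the 3mo controls, 502 and 245 in the 3mo IOP retinas, 1.31 to 6.44 at 18mo, 4.24 and 4.16 in the 4xIOP controls and 1.19 and 2.03 in the 4xIOP eyes. Up to 4 of the 10 were at 0 in a library of the 18mo or 4xIOP series. The 8 listed genes of the choroid and connective tissue summed to 62.9 and 23.5 FPKM in the 3mo IOP retinas against 8.25 and 10.1 in the 3mo controls and 5.24 to 11.5 at 18mo. Of the sum in the 3mo IOP retinas 41.8 and 11.4 FPKM were Dcn, a matrix proteoglycan, which was not called there (limma adjusted p = 0.183). Of 7 tested, 1 was called in that comparison, where 0.568% of all tested genes were called higher. It was Lum, a related proteoglycan, which was higher (5.65 and 2.16 FPKM against 0.326 and 0.162, limma adjusted p = 0.0372). Lum had a mean of 3.90 FPKM in the 3mo IOP retinas and 0.044 to 0.244 FPKM in the other groups. It thus passed the filter through the 3mo IOP libraries, which bears on the call. The call was kept in only 4 of 13 alternatives. It was lost without 3mo IOP replicate 1 or either 3mo control (highest limma adjusted p = 0.223), with a pseudocount of 0.1, with no filter on low values, with median-of-ratios scaling, by voom, with the replicate block and with only the groups compared in the fit. With age 1 of the 7, Ogn, was called lower in the controls, beside 11.6% of all tested genes. This call was lost without 18mo control replicate 2, and the log2 fold change lay between -2.09 and -1.44 with 1 library left out. In the treated eyes Lum, Ogn and Dcn were called lower, beside 11.6% of all tested genes. Lum passed the filter through the 3mo IOP libraries. Ogn, at means of 0.4845 and 0.4025 FPKM in the 18mo groups, passed it through the 3mo libraries, which bears on these calls. The call of Dcn was kept in 9 of 13 alternatives, being lost with no filter on low values and without 3mo IOP replicate 1 or either 18mo IOP library. With 1 library left out the log2 fold change of Dcn lay between -3.46 and -1.63. The part of these neighbouring tissues in the levels of the 7 genes was not tested.

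**Figure D5:**
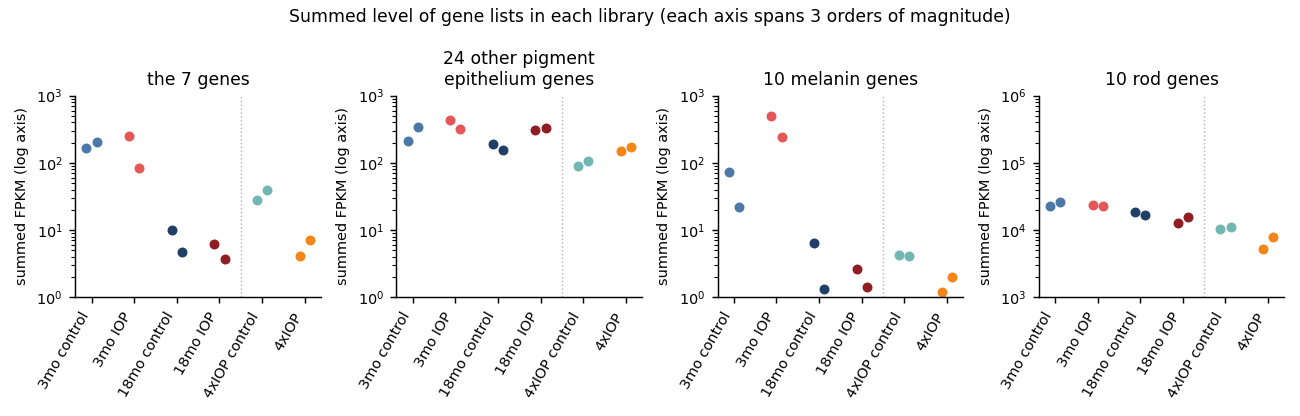
Summed FPKM (log axes of equal span) of the 7 genes, 24 other pigment epithelium genes, 10 melanin genes and 10 rod genes in each library, with replicate 1 on the left; the dotted line parts the 2 tables. The 7 genes go from 83.03 or more at 3mo to 10.1 or less at 18mo, the other pigment epithelium genes lie at 213 to 431 and 154 to 324, and both 3mo IOP libraries lie above both controls for melanin genes (245 and 502 against 22.1 and 73.8).

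Of 15 retinoid genes that the neural retina makes, all tested in the single-elevation table, 1 was called lower in each age comparison, beside 11.6% of all tested genes. Without overlap, 5 and 7 were lower, beside 32.8% and 34.5% of all tested genes, and 5 and 5 higher, beside 45.7% and 43.2%. The gene called was Rdh12, a dehydrogenase of photoreceptors, at 369 and 448 FPKM in the 3mo controls against 202 and 172 in the 18mo controls (log2 fold change -1.12, limma adjusted p = 0.0081). It was called in the treated eyes too (-1.33, limma adjusted p = 0.00602). Without 3mo control replicate 2 or either 18mo control the first call was lost (highest limma adjusted p = 0.0764), as it was with the length trend removed, and without either 3mo IOP library the second (0.0538). Rbp3, the retinoid carrier between photoreceptors and epithelium, was at 713 and 365 FPKM against 833 and 845 and was not called. Voom called 3 of the 15 lower in the control eyes and 2 in the treated eyes. None of the 14 tested was called upon repeated elevation by limma, beside 0.693% of all tested genes called lower and 5.45% higher. There 3 were lower at an unadjusted limma p under 0.05, which 2119 of all 13718 tested genes had in either direction, and voom called 2 lower. Without overlap, 6 of the 14 were lower, beside 12.7% of all tested genes, and 0 were higher. The median log2 fold change of these 14 was -0.14.

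Among the 10 rod genes, Sag was called lower with age in the controls (limma adjusted p = 0.0397) and Nrl, a rod transcription factor, in the treated eyes (limma adjusted p = 0.0142). This is 1 of 10 in each comparison, beside 11.6% of all tested genes called lower. Sag kept its call in 7 of 13 alternatives and lost it with the replicate block, with only the groups compared in the fit, with no filter on low values (limma adjusted p = 0.569) and without 3mo control replicate 2 or either 18mo control (up to 0.2). Nrl lost it without any 1 of the 4 libraries (highest limma adjusted p = 0.0985). No rod gene was called upon repeated elevation by limma, beside 0.693% of all tested genes called lower, and voom called 3 lower. At an unadjusted limma p under 0.05, 3 were lower, and 2119 of all 13718 tested genes had such a p in either direction. Of 8 Muller glia genes, 4 were called higher with age in the controls and 6 in the treated eyes, beside 11.6% and 10.2% of all tested genes, and their summed level was 758 to 1171 FPKM at 3mo and 1680 to 3096 at 18mo. In the controls the calls of Aqp4 (limma adjusted p = 0.0816) and Glul (0.0663) were lost without 18mo control replicate 1, and that of Aqp4 also by voom, with median-of-ratios scaling and with the length trend removed. In the treated eyes those of Glul (limma adjusted p = 0.0578) and Slc1a3 (0.0516) were lost without 3mo IOP replicate 2, that of Slc1a3 also with the length trend removed, and that of Apoe without either 3mo IOP library or 18mo IOP replicate 2 (highest limma adjusted p = 0.09). Of the 8 lens genes 5 were tested upon repeated elevation. These passed the filter through the 4xIOP eyes (control means of 0 for Mip to 0.212 FPKM for Crygs), so that all 5 were called higher is largely fixed by the filter. The lowest p was that of Crygs, a crystallin (0.358 and 0.067 against 6.26 and 15.6 FPKM, limma adjusted p = 7.2e-06). With 1 library left out the call was lost for Bfsp2 (without either control or 4xIOP replicate 2, highest limma adjusted p = 0.159), Lgsn (without 4xIOP control replicate 2 or 4xIOP replicate 1, 0.0972) and Mip (without 4xIOP replicate 2, 0.0567), and it held for Crygs and Crygc. Median-of-ratios scaling also ended the calls of these 3, a pseudocount of 1 those of Bfsp2 and Lgsn, no filter that of Mip, and voom and removal of the length trend that of Bfsp2. The 8 lens genes summed to 1.16 and 0.505 FPKM in the 4xIOP controls and 14.2 and 23.3 in the 4xIOP eyes, with Mip at 0 in both controls. The part of the rod, Muller glia and lens genes in the levels of the 7 was not tested.

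The ciliary and choroid plexus epithelia also make Ttr. Of 7 of their genes tested, Kcnj13 was called lower and Wfikkn2 higher in both age comparisons. Of all tested genes 11.6% were called lower in each, and 11.6% and 10.2% higher. Upon repeated elevation 6 were tested and 1 was called, beside 0.693% of all tested genes called lower. It was Aqp1, a water channel that other eye cells also make, which was lower (41.4 and 42.1 against 18.3 and 22.5 FPKM, limma adjusted p = 0.0263). Without overlap, 3 of the 6 were lower there, beside 12.7% of all tested genes, and 1 was higher. The call of Aqp1 was lost without either control or 4xIOP replicate 1 (highest limma adjusted p = 0.706), with no filter on low values and with the replicate block. That of Wfikkn2 was lost with a pseudocount of 1 in both age comparisons, in the controls also without 18mo control replicate 2, and in the treated eyes also without either 3mo IOP library and with the length trend removed. Their summed level was 134 to 184 FPKM at 3mo and 168 to 191 at 18mo, while Ttr was at 54.2 to 168 FPKM at 3mo and 0.54 to 4.98 at 18mo. Rbp4, which encodes the retinol-binding protein that transthyretin carries, was at 0.601 to 1.14 FPKM at 3mo and 0.584 to 0.889 at 18mo and was not called. Otx2, a factor of pigment epithelium and photoreceptors, was at 69.4 to 88.7 FPKM at 3mo and 97.0 to 117 at 18mo, and at 38.7 to 51.6 FPKM in the repeated-elevation libraries, without a call in any comparison. Of 5 blood genes, only Alas2 was called higher in the 18mo controls (limma adjusted p = 0.0437), beside 11.6% of all tested genes. Its mean was 2.54 FPKM there and 0.3335 to 0.447 FPKM in the other groups of that table. Alas2 thus passed the filter through the 18mo controls, which bears on this call. The call was kept in only 4 of 12 alternatives, and with 1 library left out the log2 fold change lay between 0.915 and 2.51.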

How the data were processed

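Sequencing reads of strand-specific polyA libraries were mapped to mm10 by the authors with STAR 2.7.8a and summarized with HOMER over exons of RefSeq transcripts (-strand -, -count exons, -condenseGenes), and the deposited values are FPKM, that is, tags scaled by transcript length and by mapped tags, in 1 table of 8 and 1 of 4 libraries. Each gene is represented by 1 transcript in a table, which for some genes, such as Rdh5 and Sulf1, differs between the tables. The authors' own fold changes were not used. Library depth was recovered from FPKM and transcript length as whole reads (within 0.05 of a read for at least 99.98% of values). The limit that a count of 0 allows is 3 reads and covers counting error only. Tests used limma 3.58.1 in R 4.3.3 (lmFit, eBayes with trend, Benjamini-Hochberg adjustment) on log2(FPKM + 0.5) for genes whose mean over the table was 0.5 FPKM or more. The 8 single-elevation libraries were fitted as 4 groups (4 residual degrees of freedom), the other 4 libraries alone (2 residual degrees of freedom). The script was tested on simulated data. The study calls the libraries of a group biological replicates, while the labels only number them, and p-values measure the spread between these libraries. The 7 genes, the marker lists and the tests were chosen with earlier results of these data known. Genes named from a list are those called without overlap between groups (at most 6 per list and comparison), the 3 most abundant of the other pigment epithelium genes and of the retinoid genes of the neural retina, the 6 most similar to the members and Rbp4 and Otx2. Slc6a20a lies outside this rule and was named after its values were seen. Alternatives changed the pseudocount, filter, scaling, length trend, test (voom on recovered reads), libraries and the fit (the replicate number as a block, or only the groups compared). A same-numbered control and IOP library did not deviate together (r = -0.275 at 3mo, -0.530 at 18mo and -0.290 for 4xIOP over all tested genes), so libraries were not paired. Promoter windows came from RefSeq and overlaps from GENCODE M21.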

Additional observations from a re-analysis of the deposited data

How the results depend on the processing

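The median log2 fold change of the 7 genes kept its sign in both age comparisons and upon repeated elevation under every alternative. In the controls it was -3.49, and -4.05 with a pseudocount of 0.1, -3.06 with 1, -2.97 with the length trend removed, -4.78 by voom on recovered reads and -3.69 to -3.29 with 1 library left out. In the treated eyes -3.39 became -2.80 with the length trend removed, -4.98 by voom and -4.01 to -2.78 with 1 library left out. For 4xIOP, -1.07 became -1.90 with a pseudocount of 0.1, -3.00 by voom and -1.32 to -0.83 with 1 library left out. A smaller pseudocount and voom weigh low values more by construction. At 3mo the response of -0.34 turned to 0.29 without 3mo IOP replicate 2 and was -1.15 without replicate 1. At 18mo -0.14 became -0.47 with a pseudocount of 0.1 and -0.88 by voom. The difference between ages, 0.01, turned to -0.20 with a pseudocount of 0.1 and -0.36 by voom, and lay between -0.52 and 0.71 with 1 library left out, below 0 without 3mo control replicate 2 (-0.07), 3mo IOP replicate 2, 18mo control replicate 2 (-0.10) or 18mo IOP replicate 1 (-0.14). The cause was not tested.

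Over all genes, median-of-ratios scaling lowered the median log2 fold change by 0.15 in the control age comparison, and 1059 genes were then called higher and 1968 lower in place of 1595 and 1590. With 1 library left out these were 610 (without 18mo control replicate 2) to 2624 (without 3mo control replicate 1) higher, and leaving out these same libraries gave the lowest and highest counts lower, 566 and 2093. In treated eyes 1407 higher and 1593 lower became 542 and 267 without 3mo IOP replicate 1, 401 and 321 without 3mo IOP replicate 2, and 974 lower with the length trend removed. Upon a single elevation at 3mo the 78 higher calls became 3 by voom, 9 with no filter, 20 with median-of-ratios scaling, 119 with the length trend removed, 0 without 3mo control replicate 1 or 3mo IOP replicate 1, 7 without 3mo IOP replicate 2 and 253 without 3mo control replicate 2. The 16 at 18mo became 0 by voom, with a pseudocount of 0.1, with median-of-ratios scaling and with only the groups compared in the fit. They became 1 with no filter, 8 among genes of at least 2 FPKM and 39 with the length trend removed, and their number also moved with any 1 library left out. The 748 higher upon repeated elevation became 405 among genes of at least 2 FPKM, and the 95 lower 56 with no filter. No gene was called for the difference between ages by limma, where 218 had an unadjusted p under 0.05, and none by voom, while 2 were higher with no filter and 2 lower without 3mo IOP replicate 2.

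The replicate block left the median of the 7 at -0.34 at 3mo, -0.14 at 18mo and -1.07 for 4xIOP, since a balanced block changes only the error. It took the genes called higher from 78 to 20 at 3mo, from 16 to 0 at 18mo and from 748 to 767 for 4xIOP. With the numbers crossed, a choice made after seeing the data, 298 genes were called higher and 14 lower at 3mo, 298 and 8 at 18mo and 780 and 114 for 4xIOP. Depth limited Rpe65 and Lrat at 18mo (2 to 37 reads of Rpe65 in a library) and Best1 throughout.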
